A study of Mus musculus with 24 samples.

Results

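Crypts of the mouse small intestine that had lost Rb were compared with wild-type (WT) crypts on 3 arrays of each, 6 of the 24 arrays of the series. The arrays were taken by their titles, and the comparison was made in 2 ways. The first used all 6 arrays as labelled. The second used 4 arrays and left out WT crypts 3 and Rb crypts 2, on which the signal of Rb1, the gene that encodes the Rb protein, goes against the label.

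The series profiled total RNA of crypts and of villi from 4 genotypes on Affymetrix mouse arrays, where a group of short probes (a probe set) measures each transcript, with 3 arrays for each of 8 groups. The genotypes were WT, Rb-/- (Rb), E2f1-/-;E2f2-/-;E2f3-/- (TKO) and the same 3 losses together with Rb-/- (QKO). All mice, the wild types included, were C57BL/6;FVB, were 2 months old and had received beta-napthoflavone, a ligand of the aryl hydrocarbon receptor, into the peritoneum 7 days before the tissue was taken. The labels name no promoter or Cre line behind the deletions and leave unsaid whether each array holds RNA of its own mouse, so the p-values measure the spread between these arrays, which may be technical.

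Rb is a pocket protein that binds E2f transcription factors and holds back genes for entry into S phase. Cyclin D and cyclin E kinases phosphorylate it, which frees E2f. Crypts hold the stem cells and dividing progenitors of the intestine, in which this switch is already on in many cells, whereas villi are covered by cells that have left the cycle.

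The deposited values are log2 expression, on which 1 unit is a 2-fold difference, and the median over all arrays and probe sets was 5.05. Of 18193 genes, 12131 had a mean above it. Markers of crypt epithelium were present on all 6 arrays: Epcam, an epithelial adhesion molecule, lay between 13.67 and 13.85, Lyz1, the lysozyme of Paneth cells, between 14.34 and 14.83, Olfm4, a stem cell marker, between 12.62 and 13.49, and Lgr5, the receptor that marks crypt base stem cells, between 5.80 and 7.69. The highest Lgr5 value on the WT and Rb villus arrays was 5.16. The other markers separated crypts from villi less. Their highest values on those villus arrays were 12.60 for Olfm4, 14.40 for Lyz1 and 13.87 for Epcam. Lyz1 on Rb crypts 3 (14.34) thus lay below its highest villus value. Eif2s3y, a Y-linked gene, lay between 3.11 and 3.30 on all 6. The spike-in controls for labelling ran from 5.18 to 6.01 and those for hybridization from 10.81 to 11.16. Over all genes, pairs of arrays within any of the 8 groups correlated at 0.978 to 0.995. Of the 15 pairs among the 6 crypt arrays, the pair most alike was WT crypts 3 with Rb crypts 1, at 0.996 and a median absolute difference of 0.130, and the next was WT crypts 2 with Rb crypts 2, at 0.994 and 0.147. Rb crypts 3 was the array least like the others, at 0.983 to 0.991.

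Rb1 was read by 2 probe sets, and the brighter of them gave 10.31, 10.59 and 8.46 on WT crypts 1 to 3 and 8.23, 10.25 and 8.87 on Rb crypts 1 to 3. WT crypts 3 thus had the second lowest value of the 6 and Rb crypts 2 the third highest. In the other groups the signal followed the labels: it was 10.70 to 10.93 in WT villi, 8.84 to 9.36 in Rb villi, 9.71 to 9.95 in TKO crypts and 8.13 to 8.23 in QKO crypts. As labelled, Rb1 differed between Rb and WT crypts by -0.67 ± 0.41 (SE of the fit, 3 arrays against 3, adjusted p = 0.999 in limma). The dimmer Rb1 probe set lay between 3.24 and 3.89 on the 6 crypt arrays. Where either probe set sits relative to the deleted part of the gene is not stated in the labels. Neither array was moved to the other group, and both are called below by their labels.

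**Figure D1:**
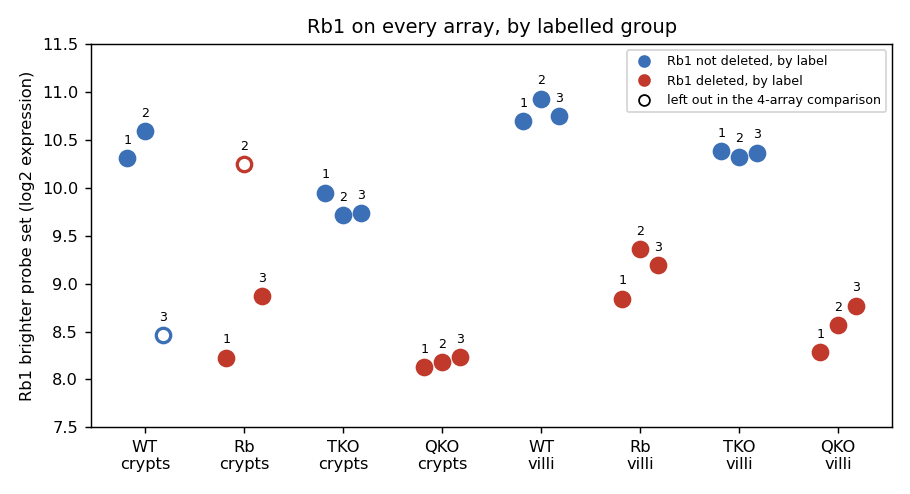
Log2 expression of the brighter Rb1 probe set on each of the 24 arrays (vertical axis) by labelled group, each point 1 array with its replicate number; open points are WT crypts 3 and Rb crypts 2. WT crypts 3 (8.46) lies among the arrays labelled as lacking Rb1, and Rb crypts 2 (10.25) lies with WT crypts 1 and 2 (10.31 and 10.59).

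With all 6 arrays as labelled, 0 of 18193 genes were called at an adjusted p under 0.05 in limma (0%), and 709 had an unadjusted p under 0.05. The arrays of the 2 groups did not overlap for 955 genes with higher values in Rb crypts (5.25%) and 596 with lower values (3.28%). The largest positive differences without overlap were in Slc40a1, the iron exporter ferroportin (0.94 ± 0.40), Socs3, a feedback inhibitor of cytokine signalling (0.92 ± 0.53), Chac1, an enzyme of glutathione breakdown (0.84 ± 0.30), Car9, a carbonic anhydrase (0.80 ± 0.22), and Ifit1bl2 (0.75 ± 0.33). Slc40a1 rested mainly on 1 array: it was at 7.18, 7.11 and 7.28 on WT crypts 1 to 3 and at 7.60, 7.43 and 9.36 on Rb crypts 1 to 3. Car9 was more even, at 9.14, 9.40 and 9.51 against 10.08, 10.24 and 10.13. The largest negative differences without overlap were in Stox2 (-1.62 ± 0.60), the mucin gene Muc4 (-1.49 ± 0.59), Tppp, a tubulin-binding protein (-1.25 ± 0.31), Ube2d-ps (-1.13 ± 0.27) and Scn2b, a sodium channel subunit (-1.04 ± 0.30). Muc4 also rested mainly on 1 array, at 7.40, 8.12 and 7.83 on WT crypts against 7.22, 4.61 and 7.06 on Rb crypts. Its dimmer probe sets differed by 0.05 and 0.03. Those of Stox2 differed by -0.31 to 0.24, and those of Scn2b by 0.04 and -0.17. The second Ube2d-ps probe set, about as bright, went the opposite way without overlap. It read 5.09, 5.29 and 5.88 on WT crypts 1 to 3 against 6.47, 6.40 and 6.31 on Rb crypts 1 to 3, a difference of 0.98. None of these 10 passed the test, with adjusted p from 0.995 to 0.999.

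Without WT crypts 3 and Rb crypts 2, limma called 18 of 18193 genes between Rb crypts 1 and 3 and WT crypts 1 and 2 (0.0989%), 10 higher (0.055%) and 8 lower (0.044%), and 1873 had an unadjusted p under 0.05. Rb1 was 1 of the 8, but it chose the arrays and its difference of -1.90 is a description only. The other 17 comprise 10 genes that were higher in Rb crypts and 7 that were lower. Several of the 10 drive or carry out DNA replication. These calls lean on the spread of the other groups: with only the 4 arrays in the fit, 0 genes were called (1468 at an unadjusted p under 0.05). Quantile normalization gave 32 calls, 23 higher and 9 lower. The calls also depend on single arrays, and leaving out 1 of the 4 in turn gave 2 calls without WT crypts 2, 4 without Rb crypts 3, 19 without WT crypts 1 and 120 without Rb crypts 1.

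Of the 10 higher genes, 5 belong to the list of S phase entry and replication (G1/S list, 56 genes measured). Ccne1 and Ccne2 encode the E cyclins, which activate Cdk2 at the start of S phase and are classical E2f targets. Ccne1 read 7.42 and 7.24 on WT crypts 1 and 2 and 8.98 and 8.99 on Rb crypts 1 and 3, a difference of 1.66 ± 0.23 (adjusted p = 0.00402). Its second probe set read 7.40 and 7.45 against 8.75 and 9.05. Ccne2 read 7.49 and 8.01 against 9.49 and 9.90, a difference of 1.95 ± 0.30 (adjusted p = 0.0105). Both E cyclins were thus higher on each of the Rb arrays than on each of the WT arrays of this fit.

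The 3 others are parts of the replication machinery. Pcna encodes the sliding clamp that holds DNA polymerases on their template. It was already among the brighter genes in WT crypts, at 12.70 and 12.57, and read 13.36 and 13.51 in Rb crypts (0.80 ± 0.12, adjusted p = 0.00603). Prim1, the catalytic subunit of primase, which starts each new DNA strand, read 9.92 and 9.999 against 10.95 and 11.03 (1.03 ± 0.16, adjusted p = 0.0105), and its second probe set differed by 0.93. Wdhd1, a replisome protein that links the helicase to DNA polymerase alpha, read 7.71 and 7.95 against 8.58 and 9.04 (0.98 ± 0.18, adjusted p = 0.0392).

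A further pair of raised genes are linked to the cycle. Cdkn2c encodes p18, an inhibitor of Cdk4 and Cdk6, and read 9.12 and 9.28 against 10.46 and 10.22 (1.15 ± 0.16, adjusted p = 0.00402). Tcf19, a gene expressed late in G1, read 9.39 and 9.37 against 10.66 and 10.59 (1.24 ± 0.21, adjusted p = 0.0213). For both genes the arrays within a group lay close together beside the gap between the groups.

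The largest rise of the 17 was in Reg1, which encodes a secreted C-type lectin of the regenerating family. It read 10.55 and 11.48 on WT crypts 1 and 2 and 12.62 and 13.66 on Rb crypts 1 and 3 (2.13 ± 0.34, adjusted p = 0.0125), so the arrays within each group also lay apart. Cnih4, a cargo receptor of the early secretory pathway, read 10.33 and 10.01 against 10.97 and 11.27 (0.95 ± 0.16, adjusted p = 0.018). The clone 1110032F04Rik was dim, at 4.65 and 4.51 against 5.41 and 5.47 (0.86 ± 0.15, adjusted p = 0.0213), and its second probe set, at 3.32 to 3.43 on all 6 arrays, differed by 0.02.

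The largest fall was in Nts, which encodes neurotensin, a peptide hormone of enteroendocrine cells. Nts read 9.89 and 10.34 on WT crypts 1 and 2 and 7.48 and 7.90 on Rb crypts 1 and 3, a difference of -2.43 ± 0.34 (adjusted p = 0.00402). Tppp read 6.31 and 6.28 against 4.36 and 4.88 (-1.68 ± 0.32, adjusted p = 0.0429). Gatm, the first enzyme of creatine synthesis, read 5.80 and 6.30 against 4.32 and 4.66 (-1.56 ± 0.25, adjusted p = 0.0125). In bulk tissue, fewer cells of a type and less RNA per cell cannot be told apart, which touches Nts first.

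The 4 other lower genes changed less. Ipo4, an importin that carries histones and ribosomal proteins into the nucleus, read 8.95 and 9.15 against 8.38 and 7.42 (-1.15 ± 0.22, adjusted p = 0.0429), and its second probe set differed by -0.55. Nav1, a neuron navigator gene, differed by -1.15 ± 0.20 (adjusted p = 0.0243) on its brightest probe set, while its 3 dimmer probe sets differed by -0.14 to 0.18. Gper1, a membrane estrogen receptor, differed by -1.04 ± 0.18 (adjusted p = 0.0266), and its second probe set, which is almost as bright, by 0.06. Klhl9, an adaptor of a cullin ubiquitin ligase active in mitosis, differed by -0.75 ± 0.14 (adjusted p = 0.0477).

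The 2 arrays left out did not enter this fit, and their values for the same genes are given by label. Cdkn2c read 10.28 on WT crypts 3 and 9.13 on Rb crypts 2, Ccne2 read 9.69 and 7.83, and Nts read 7.52 and 9.86. WT crypts 3 was nearer the mean of Rb crypts 1 and 3 than that of WT crypts 1 and 2 for 14 of the 17 genes. Rb crypts 2 was nearer the WT mean for all 17. The exceptions for WT crypts 3 were Ccne1 (8.07, but 8.97 on its second probe set, at the level of Rb crypts 1 and 3), 1110032F04Rik (4.76) and Tppp (6.29, beside 6.31 and 6.28 on the WT arrays). Tppp was thus low on Rb crypts 1 and 3 (4.36 and 4.88), intermediate on Rb crypts 2 (5.89) and at the WT level on WT crypts 3. Across all 18193 genes, the difference between the 4 arrays and the difference of WT crypts 3 minus Rb crypts 2 correlated at 0.41, over genes and with no array in common. Of 164 genes whose 4 arrays did not overlap and differed by more than 1, 148 had the same sign in WT crypts 3 minus Rb crypts 2. Of all 7511 genes whose 4 arrays did not overlap, the share was 66.9%.

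**Figure D2:**
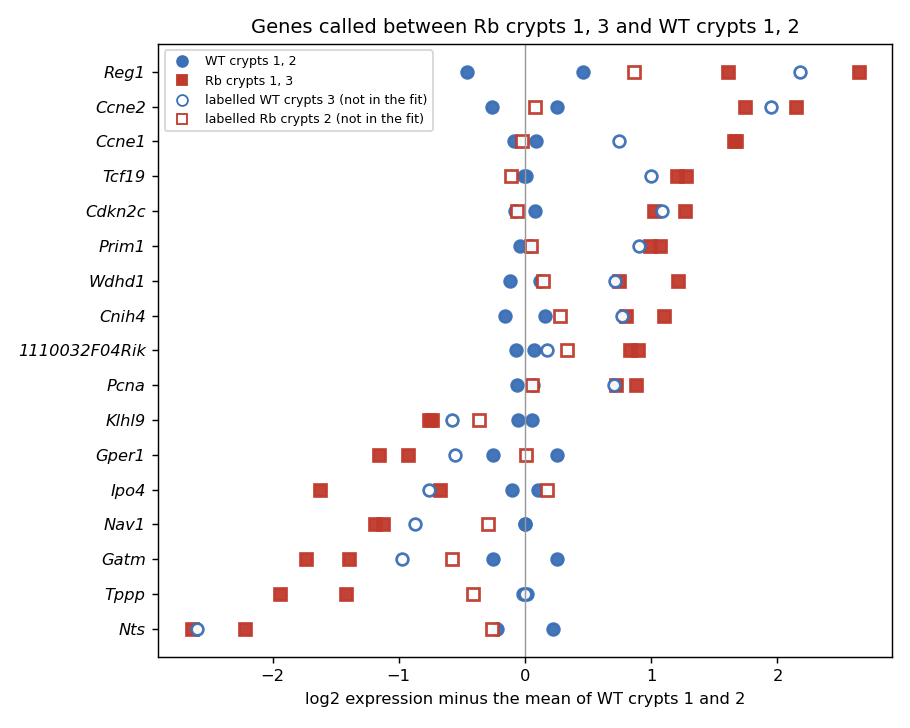
Log2 expression of the 17 called genes other than Rb1 (rows) on the 6 crypt arrays, minus the mean of WT crypts 1 and 2 (horizontal axis); filled points are the 4 arrays of the fit and open points the 2 arrays left out, in the colour and shape of their labels. The open circle (WT crypts 3) lies nearer Rb crypts 1 and 3 in 14 rows, and the open square (Rb crypts 2) lies nearer WT crypts 1 and 2 in all 17.

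Promoters are shown for the 4 called replication genes of smallest p that RefSeq's promoter table (GRCm38.p6) lists, because E2f factors are known to bind such promoters. Each window of 300 bases lies around the gene's start, mostly before it, and is written 5′ to 3′ on the gene's strand. Capitals mark an E2f-type core on either strand, TTNNCGC in which each N is C or G. Ccne1 lies at chr7:38107441-38107740 on the minus strand, Pcna at chr2:132253131-132253430 on the minus strand, Prim1 at chr10:128014965-128015264 on the plus strand and Wdhd1 at chr14:47276808-47277107 on the minus strand.
Ccne1: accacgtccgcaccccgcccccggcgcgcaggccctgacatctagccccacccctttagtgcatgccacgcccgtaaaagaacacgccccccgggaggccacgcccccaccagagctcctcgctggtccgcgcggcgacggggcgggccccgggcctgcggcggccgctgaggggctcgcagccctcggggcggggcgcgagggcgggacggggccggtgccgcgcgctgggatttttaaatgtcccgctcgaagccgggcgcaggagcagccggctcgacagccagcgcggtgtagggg
Pcna: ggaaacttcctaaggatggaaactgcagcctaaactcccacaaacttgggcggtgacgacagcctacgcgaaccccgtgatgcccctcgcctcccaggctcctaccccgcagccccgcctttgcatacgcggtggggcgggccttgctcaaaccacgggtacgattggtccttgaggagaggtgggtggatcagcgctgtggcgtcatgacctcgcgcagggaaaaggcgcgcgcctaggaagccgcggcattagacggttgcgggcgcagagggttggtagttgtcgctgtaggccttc
Prim1: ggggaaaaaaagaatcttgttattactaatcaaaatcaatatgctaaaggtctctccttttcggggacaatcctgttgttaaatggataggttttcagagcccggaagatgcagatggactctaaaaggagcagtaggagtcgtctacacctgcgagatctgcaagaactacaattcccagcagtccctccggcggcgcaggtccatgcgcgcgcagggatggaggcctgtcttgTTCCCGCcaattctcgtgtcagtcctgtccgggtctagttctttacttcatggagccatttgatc
Wdhd1: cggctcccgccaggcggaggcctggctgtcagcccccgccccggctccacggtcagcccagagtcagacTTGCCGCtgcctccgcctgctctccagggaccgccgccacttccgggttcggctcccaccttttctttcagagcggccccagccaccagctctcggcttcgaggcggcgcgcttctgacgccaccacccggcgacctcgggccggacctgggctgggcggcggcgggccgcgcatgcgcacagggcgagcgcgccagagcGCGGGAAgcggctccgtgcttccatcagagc
These windows hold 0 matches in Ccne1, 0 in Pcna, 1 in Prim1 and 2 in Wdhd1. A match is only a description of the letters. The 7-letter core was searched after a stricter one, with a further T in front, had found 0 matches in the called genes. The 7-letter core occurred in 4 of 8 higher genes with an entry (50%: Cdkn2c, Prim1, Tcf19 and Wdhd1) and in 0 of 7 lower ones. It occurred in 28 of the 45 promoters of the G1/S list (62.22%), in 24.14% of those of ribosome biogenesis genes, in 15.99% of the promoters of all genes measured on the arrays and in 10.86% of all 27025 promoters in the table. The 8-letter form occurred in 19 of the 45 (42.22%), in 3.806% of those of measured genes and in 2.605% of all.

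The E2f family itself showed no called change in crypts. It comprises activators (E2f1 to E2f3), repressors (E2f4 to E2f6), the atypical repressors E2f7 and E2f8, which are themselves E2f targets, and the DP partners Tfdp1 and Tfdp2. Of 10 measured members, 9 had higher values on Rb crypts 1 and 3, with a median difference of 0.28 beside 0.01 for all genes, and 0 passed the test. E2f8 read 9.06 and 8.92 on WT crypts 1 and 2 and 10.11 and 10.13 on Rb crypts 1 and 3 (1.13 ± 0.27, adjusted p = 0.143). E2f7 read 7.48 and 7.66 against 8.49 and 8.43 (0.89 ± 0.33, adjusted p = 0.369). The atypical pair had the largest differences of the family, and E2f1 followed at 0.59 ± 0.23 (adjusted p = 0.390). The dimmer E2f1 probe sets differed by 0.18 and -0.15. E2f3 and E2f4 differed by 0.09 and -0.01.

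Among 9 measured pocket protein and DREAM genes, which form the Rb family and its repressor complex, Rbl1 came closest to the threshold. Rbl1 encodes p107, a relative of Rb that shares its E2f-binding role. It read 9.44, 9.48 and 10.17 on WT crypts 1 to 3 and 10.26, 9.58 and 10.29 on Rb crypts 1 to 3 (0.81 ± 0.16 without the 2 arrays, adjusted p = 0.0580). The dimmer Rbl1 probe sets differed by 0.009 to 0.10. Rbl2, which encodes p130, differed by -0.21 ± 0.25 (adjusted p = 0.822), and Mybl2, a MuvB partner and E2f target, by -0.47 ± 0.23 (adjusted p = 0.488). The median of the 9 was 0.14, and apart from Rb1, 0 were called.

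Values of a D cyclin and its kinase lay the other way from the E cyclins. Ccnd2, the cyclin that pairs with Cdk4 and Cdk6, read 10.78 and 10.50 on WT crypts 1 and 2 and 9.22 and 8.36 on Rb crypts 1 and 3 (-1.85 ± 0.37, adjusted p = 0.0580). It is not called on its brightest probe set. Its 7 probe sets differed by -1.27 to -1.85, and 2 of the dimmer ones, at -1.68 and -1.62, were called when every probe set was tested (adjusted p = 0.0159 and 0.0218 in limma). Cdk6 read 9.16 and 9.81 against 8.61 and 7.78 (-1.29 ± 0.29, adjusted p = 0.0989), and 1 of its 2 dimmer probe sets, at -1.38, was called when every probe set was tested (adjusted p = 0.0356), the dimmest differing by -0.16. On WT crypts 3 and Rb crypts 2, Ccnd2 read 9.11 and 10.58. Of the 14 genes in the list of D cyclins, G1 kinases and inhibitors, 1 was called higher (Cdkn2c), 0 lower, 9 had higher values and the median was 0.40. Cdkn1a, which encodes the inhibitor p21, differed by 0.92 ± 0.27 (adjusted p = 0.256).

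Over the whole G1/S and replication list the shift was small and mostly one way. Of 56 measured genes, 48 had higher values on Rb crypts 1 and 3, 5 were called higher and 0 lower, and the median difference was 0.32, beside 0.01 for all genes. Arrays did not overlap for 39 of them in the higher direction (69.6%) and for 1 in the lower (1.79%), beside 21.8% and 19.5% of all genes. The range ran from -0.88 to 1.95. Of the subunits of the Mcm2 to Mcm7 helicase, looked up after the list's values were seen, 0 of 6 were called, and their differences ran from -0.05 (Mcm5) to 0.77 (Mcm6). As labelled, the median was 0.13. The mean of the list read 8.92, 8.92 and 9.35 on WT crypts 1 to 3 and 9.42, 8.94 and 9.22 on Rb crypts 1 to 3.

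The 56 genes of G2/M and mitosis shifted less evenly. Of these, 51 had higher values, 0 were called, 19 did not overlap in the higher direction (33.9%, beside 21.8% of all genes) and the median difference was 0.27. Leaving out each of the 4 arrays in turn moved this median between 0.01 and 0.54, the lowest being without Rb crypts 1. The list mean was 8.75 and 8.95 on WT crypts 1 and 2, 9.41 on Rb crypts 1 and 8.83 on Rb crypts 3, so the 2 Rb arrays lay on either side of WT crypts 2. The widest difference in the list was that of Nusap1, a spindle protein, at 0.81 ± 0.41 (adjusted p = 0.509).

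Genes of the DNA damage checkpoint and repair had a median of 0.16 over 20 members, and 0 were called. Clspn, which encodes the checkpoint mediator claspin and is a known E2f target, read 7.87 and 7.86 on WT crypts 1 and 2 and 9.18 and 8.83 on Rb crypts 1 and 3 (1.14 ± 0.22, adjusted p = 0.0554). Its second probe set, at 5.20 to 5.52 on the 6 crypt arrays, differed by -0.03. Brca1, of homologous recombination, differed by 0.70 ± 0.25 (adjusted p = 0.334). Over 24 p53 targets and apoptosis genes the median was 0.11 and 0 were called. Bcl2l11, which encodes the death inducer Bim, differed by 0.83 ± 0.30 (adjusted p = 0.355), and Aen, a p53-induced nuclease, by -0.91 ± 0.27 (adjusted p = 0.251).

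**Figure D3:**
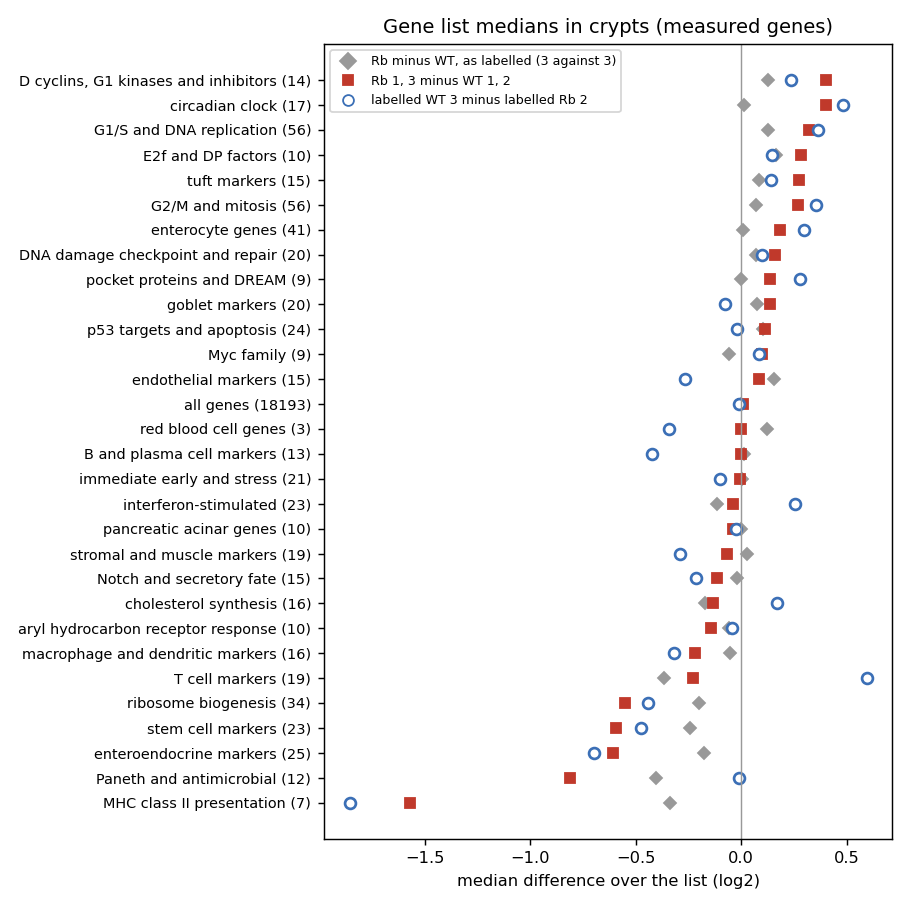
Median log2 difference (horizontal axis) over the measured genes of each list (rows, with their number) in 3 forms: Rb minus WT as labelled, Rb crypts 1 and 3 minus WT crypts 1 and 2, and WT crypts 3 minus Rb crypts 2. For G1/S and DNA replication they are 0.13, 0.32 and 0.36, for ribosome biogenesis -0.20, -0.55 and -0.44, and for all 18193 genes all 3 lie within 0.02 of 0.

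Ribosome biogenesis genes had lower values on Rb crypts 1 and 3 without exception among the 34 listed, and 0 passed the test. These factors process ribosomal RNA and assemble ribosomal subunits. The median difference was -0.55, the range -0.96 to -0.18, and the arrays did not overlap for 33 of 34 (97.1%), beside 19.5% of all genes. Rrs1, an assembly factor of the large subunit, read 9.55 and 9.69 against 8.93 and 8.39 (-0.96 ± 0.26, adjusted p = 0.198). Utp15, of the small subunit processome, differed by -0.76 ± 0.18 (adjusted p = 0.134) and Rrp12 by -0.89 ± 0.25 (adjusted p = 0.233). The list mean was 9.34 and 9.26 on WT crypts 1 and 2, 8.98 on Rb crypts 1 and 8.52 on Rb crypts 3. Rb crypts 3 was thus the lowest array. On WT crypts 3 it was 8.92 and on Rb crypts 2 it was 9.37, and all 34 genes were lower on WT crypts 3. As labelled the median was -0.20, and without Rb crypts 3 the median of the reduced comparison was -0.31. Myc, a transcription factor that drives many of these genes, read 9.80 and 10.33 against 9.24 and 8.64 (-1.12 ± 0.28, adjusted p = 0.156), and 0 of 9 Myc family genes were called, with a median of 0.10.

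Stem cell markers were also lower on the same arrays, with 0 of 23 called, 19 lower in value and a median of -0.59. Cd44, a Wnt target and surface receptor of crypt base cells, read 9.56 and 9.74 on WT crypts 1 and 2 and 8.92 and 7.54 on Rb crypts 1 and 3 (-1.42 ± 0.31, adjusted p = 0.0963). Ascl2, a transcription factor required by Lgr5 stem cells, read 8.40 and 7.83 against 7.38 and 6.75 (-1.05 ± 0.29, adjusted p = 0.198). Tnfrsf19, a Wnt target also known as Troy, differed by -1.37 ± 0.35 (adjusted p = 0.162). Its other probe sets, nearly as bright (means of 4.47 and 4.31 beside 4.69 over the 24 arrays), differed by -0.17 and -0.04. Lgr5 read 6.52 and 7.47 against 6.58 and 5.80, so its groups overlapped. The arrays of the list did not overlap for 13 of 23 genes in the lower direction (56.5%), beside 19.5% of all genes. The median was -0.30 without Rb crypts 3, -0.33 without WT crypts 2 and -1.09 without Rb crypts 1.

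Enterocyte markers varied on the same arrays, and their part in these list results was not tested. The mean of 41 enterocyte genes, which belong to the absorptive cells of villi, read 11.40, 11.21 and 11.47 on WT crypts 1 to 3 and 11.16, 11.02 and 11.70 on Rb crypts 1 to 3. Rb crypts 3 was thus the highest in enterocyte genes and the lowest in stem cell markers (7.71, against 8.22 to 8.73 on the 5 others). Rb crypts 1 went the other way for enterocyte genes, below WT crypts 1 and 2. The median difference of the list was 0.19 without the 2 arrays and 0.01 as labelled. Leaving out Rb crypts 3 as well turned it to -0.08, leaving out WT crypts 2 gave 0.12, and the medians without Rb crypts 1 and without WT crypts 1 were 0.42 and 0.29. In this list 0 genes were called, and Alpi, intestinal alkaline phosphatase, differed by 0.73 ± 0.18 (adjusted p = 0.149).

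**Figure D4:**
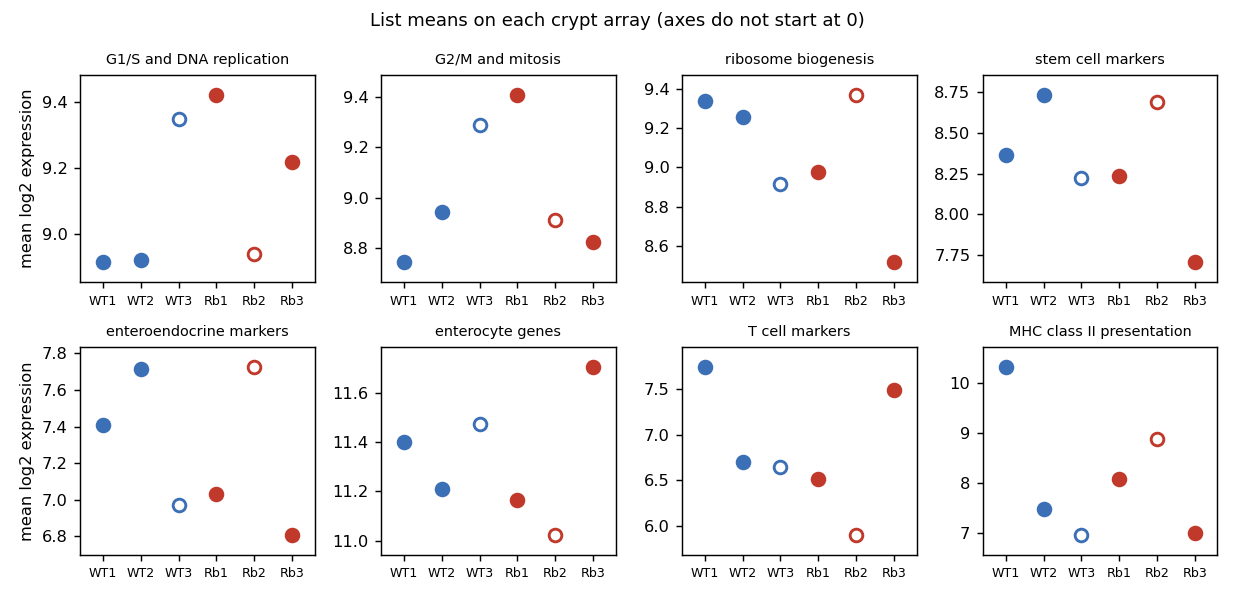
Mean log2 expression (vertical axes, which do not start at 0) of 8 gene lists on each crypt array, with open points for WT crypts 3 and Rb crypts 2. In G1/S and DNA replication WT crypts 3 (9.35) and Rb crypts 1 and 3 (9.42 and 9.22) lie above the 3 other arrays (8.92 to 8.94), while T cell and MHC class II genes do not follow the same order.

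Enteroendocrine markers, which label the hormone cells of the gut, were lower in value for 22 of 25 genes, with a median of -0.61. Only Nts was called. Gcg, which encodes proglucagon, read 9.33 and 9.72 against 8.13 and 7.33 (-1.80 ± 0.52, adjusted p = 0.238), and Pyy, peptide YY, read 7.43 and 7.90 against 6.56 and 6.44 (-1.16 ± 0.34, adjusted p = 0.243). On the left-out arrays all 25 genes were lower on WT crypts 3 than on Rb crypts 2. The median was -0.39 without WT crypts 2 and -0.40 without Rb crypts 3. The list mean was 7.41, 7.72 and 6.97 on WT crypts 1 to 3 and 7.03, 7.73 and 6.81 on Rb crypts 1 to 3.

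In the other epithelial lists 0 genes were called. Of 12 measured Paneth and antimicrobial genes, 9 had lower values (median -0.81), but the list split. Habp2, a secreted protease, differed by -1.39 (adjusted p = 0.0574), while the lectins Reg3b and Reg3g differed by 0.92 and 1.17 (adjusted p = 0.426 and 0.490). The Paneth median was -0.09 without Rb crypts 3, -0.51 without WT crypts 2 and -1.39 without Rb crypts 1. Tuft cell markers had a median of 0.27 over 15 genes (0.48 without Rb crypts 1), goblet markers 0.13 over 20 and Notch and secretory fate genes -0.12 over 15. Rgs13, a tuft cell regulator of G-protein signalling, read 6.49 and 5.23 against 7.18 and 7.66 (1.56 ± 0.54, adjusted p = 0.330).

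Among immune genes, the MHC class II and T cell lists had overlapping groups. The MHC class II list, which serves antigen presentation, had a mean of 10.32, 7.49 and 6.97 on WT crypts 1 to 3 and 8.07, 8.89 and 7.01 on Rb crypts 1 to 3. Its median difference of -1.57 rested on WT crypts 1 and became 0.10 without it. T cell markers had means of 7.75, 6.70 and 6.65 against 6.52, 5.90 and 7.49. The mean of 13 B and plasma cell genes instead followed the Rb1 signal. It was 5.74, 5.69 and 5.50 on WT crypts 1 to 3 and 5.50, 5.92 and 5.45 on Rb crypts 1 to 3. The median difference of this list was -0.003 without the 2 arrays, with 6 genes higher and 7 lower. For WT crypts 3 minus Rb crypts 2 the median was -0.42. Of the 13 genes, 7 lay above the median of all values. Jchain, which joins antibody multimers, read 7.98 and 8.18 on WT crypts 1 and 2 and 6.68 and 6.11 on Rb crypts 1 and 3, with 6.87 on WT crypts 3 and 8.34 on Rb crypts 2, and was not called (adjusted p = 0.522). The 4 arrays did not overlap in the lower direction for 38.5% of B and plasma cell genes and 43.8% of 16 macrophage and dendritic genes, beside 19.5% of all genes. B and plasma cell, macrophage and dendritic, endothelial, stromal and muscle, red blood cell and pancreatic acinar lists had medians between -0.22 and 0.09. Of their genes, and of the T cell and MHC class II genes, 0 were called.

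Responses to stress, time of day and the injected compound were also listed. Hspa1b, the inducible heat shock protein, had the most negative difference of all 18193 genes, at 8.65 and 9.77 against 5.40 and 7.30 (-2.86 ± 0.61), but it was not called (adjusted p = 0.0881), and the median of 21 immediate early and stress genes was -0.01. Clock genes had a median of 0.40 over 17 members, and WT crypts 3 minus Rb crypts 2 gave 0.48. Their median was 0.12 without Rb crypts 3, 0.18 without WT crypts 2 and 0.61 without Rb crypts 1. Tef, a clock output factor, read 8.23, 8.56 and 9.43 on WT crypts 1 to 3 and 9.17, 8.02 and 9.504 on Rb crypts 1 to 3 (0.94 ± 0.37, adjusted p = 0.389). Genes of the aryl hydrocarbon receptor response had a median of -0.14 over 10 members, cholesterol synthesis genes -0.13 over 16 and interferon-stimulated genes -0.04 over 23. In these lists too 0 genes were called.

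The same loss was measured in villi, on 6 other arrays, where limma called 2690 genes (14.8%), 8.59% higher and 6.19% lower. Of the 17 genes called in crypts, 9 were called in villi in the same direction, 0 in the opposite direction and 8 were not called. Prim1 read 7.64 to 7.72 in WT villi and 10.93 to 11.11 in Rb villi, so the Rb villi reached the level of Rb crypts 1 and 3 (10.95 and 11.03) while WT villi lay far below WT crypts. Tcf19 likewise read 6.94 to 7.13 against 10.65 to 10.94. Of the G1/S list, 55 of 56 genes were called higher in villi, with a median of 2.07, beside 5 of 56 and 0.32 in crypts. The 2 comparisons share no arrays. Of the arrays of Rb villi, 2 of 3 had Eif2s3y at 9.24 while WT villi lay between 3.02 and 3.46, and the part of sex in these differences was not tested.

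The difference of the differences, villi minus crypts without the 2 arrays, was called for 768 genes in limma (4.22%), 639 with a more positive difference in villi (3.51%) and 129 with a more negative one (0.709%). With all arrays as labelled it was 950 (5.22%), 4.12% positive and 1.1% negative. Quantile normalization changed that balance, to 465 positive and 224 negative without the 2 arrays. Single arrays mattered too: 171 genes were called without Rb crypts 3 and 248 without WT crypts 2. The G1/S list held 43 of the 639 (49 of 749 as labelled), and ribosome biogenesis 23 (8 as labelled). The median over all 34 ribosome biogenesis genes was 0.61 in villi. Among the 17 genes, 11 were called. The 17 were chosen for their crypt difference on the same 4 arrays. That difference is a term of this test, so the choice tilts the test towards a call. The Rb difference was larger in villi by 2.46 for Tcf19 (adjusted p = 5.64e-05), 2.29 for Prim1 (adjusted p = 1.84e-05), 1.52 for Cdkn2c, 1.28 for Pcna and 1.25 for Wdhd1. Ccne1 and Ccne2 differed by 0.97 and 0.77 between the compartments and were not called (adjusted p = 0.0736 and 0.283). With all arrays as labelled Ccne1 was called (adjusted p = 0.0246), while Reg1, Gatm, Nav1, Gper1, Klhl9 and 1110032F04Rik were not, with adjusted p from 0.0503 to 0.545. Reg1 went the other way, by -2.20 (adjusted p = 0.00746). It read 13.59 to 13.91 in WT villi and 13.48 to 13.84 in Rb villi, which overlap, and both lay above WT crypts 1 and 2. Gatm, Nav1, Gper1 and Klhl9, lower in Rb crypts, differed by -0.13 to 0.16 in villi.

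**Figure D5:**
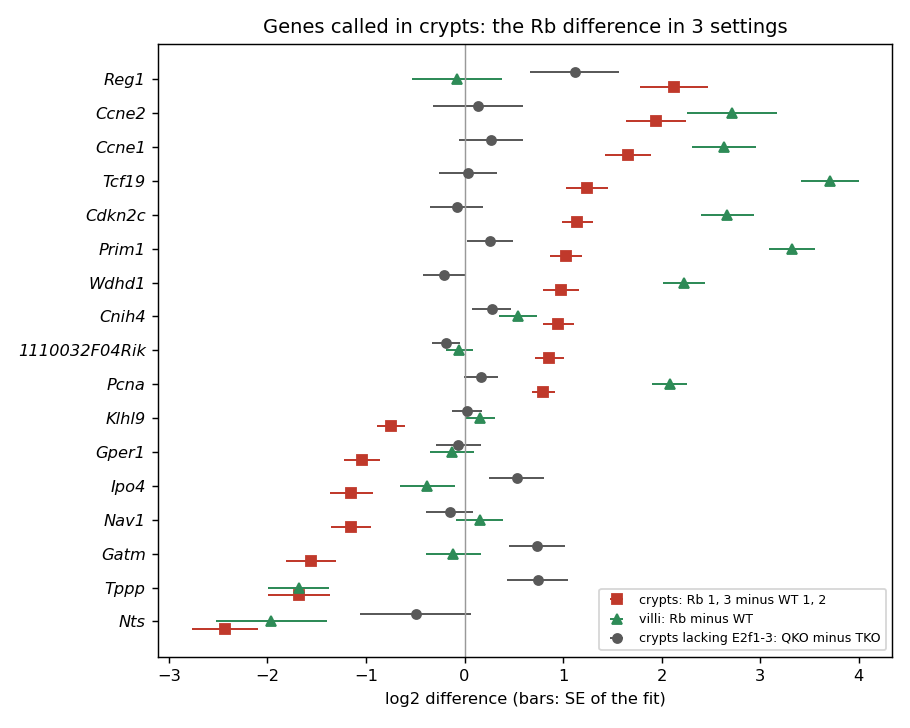
Log2 difference (horizontal axis, bars are the SE of the fit) for the 17 genes called in crypts other than Rb1: Rb crypts 1 and 3 minus WT crypts 1 and 2, Rb minus WT in villi, and QKO minus TKO in crypts. Prim1 is 1.03, 3.32 and 0.26, Nts is -2.43, -1.96 and -0.50, and 0 of the 17 were called in QKO minus TKO.

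Loss of Rb in crypts that also lack E2f1, E2f2 and E2f3 was measured as QKO minus TKO, again with no array in common. There limma called 292 genes (1.61%), 1.42% higher and 0.181% lower, and 0 of the 17. Cdkn2c read 5.92 to 6.19 in TKO crypts and 5.90 to 6.04 in QKO crypts, below its level of 9.12 to 10.46 on all 6 WT and Rb crypt arrays. Ccne2 read 6.52 to 7.30 against 6.81 to 7.00, and Pcna 12.40 to 12.68 against 12.61 to 12.75. Of the G1/S list, 0 of 56 genes were called, with a median of 0.17 beside 0.08 for all genes. Nts differed by -0.50 ± 0.56 (adjusted p = 0.680), and the enteroendocrine median was 0.52.

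The test of that difference, QKO minus TKO minus the crypt difference without the 2 arrays, called 25 genes (0.137%), 18 positive (0.0989%) and 7 negative (0.0385%), and 5 with all arrays as labelled (0.0275%), 0.022% positive and 0.0055% negative. Quantile normalization gave 8 positive and 11 negative calls, and the count was 3 without WT crypts 2 and 233 without Rb crypts 1. Of the 17 genes, 6 were among the 25. This test also holds the crypt difference for which the 17 were chosen, so that choice tilts the test towards a call. Cdkn2c differed by -1.23, Wdhd1 by -1.19 and 1110032F04Rik by -1.05, all less positive without E2f1 to E2f3, and Tppp by 2.42, Gatm by 2.30 and Ipo4 by 1.68, with adjusted p from 0.00644 to 0.0483. None of these 6 was called with all arrays as labelled, where their adjusted p ran from 0.0835 to 0.617. Ccne1 (-1.39) and Ccne2 (-1.81) were not called (adjusted p = 0.0651 for both), nor was Pcna (-0.63, adjusted p = 0.0880). TKO and QKO crypt arrays also stood apart from the 6 others in controls. Their labelling spike-in controls read 8.97 to 10.61 in crypts, and Eif2s3y was at 9.54 to 10.06 on all QKO crypt arrays but at 3.33, 9.41 and 9.44 on TKO crypts 1 to 3. The part of either in these calls was not tested.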

How the data were processed

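Total RNA (3 ug, Trizol) was labelled as biotinylated cRNA and hybridized to Affymetrix mouse arrays, per the labels' protocols. The authors deposited one log2 expression value per probe set and array, and the summarisation and normalization behind it are not described in the sources used here. Values were used as deposited. Of 45101 probe sets, 34945 map to 1 gene, 932 to several, 9160 to none and 64 are controls. Each gene was represented by its probe set of highest mean over 24 arrays (18193 genes).

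Groups were fitted in limma 3.58.1 (R 4.3.3) with 1 mean per group over all 24 arrays, or 22 without WT crypts 3 and Rb crypts 2, with moderated variances following an intensity trend and Benjamini-Hochberg adjustment over all genes. Calls were made below an adjusted p of 0.05, ± is the standard error of the fit, and the number of arrays limits the precision. The method was tested on simulated data. Python 3.11.15 drew the figures. Named genes were Rb1, all E2f and pocket protein genes, the called genes or, where under 10 were called, the 5 largest differences each way without overlap and with the higher group mean above 5.05 (predicted genes and Riken clones left out), and the members of smallest p in each list. The left-out arrays, the members and the 29 lists were chosen with earlier results of these data known. RefSeq promoters were matched by gene. Alternatives were other normalizations, filters, probe set rules, fits and leaving out arrays.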

Additional observations from a re-analysis of the deposited data

Results flagged for a closer look

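The Rb difference in villi minus that in crypts was called by limma for 950 genes as labelled and for 768 without WT crypts 3 and Rb crypts 2. In the latter comparison it was positive for Tcf19 (2.46), Prim1 (2.29), Cdkn2c (1.52), Gatm (1.45), Nav1 (1.31), Pcna (1.28), Wdhd1 (1.25), Gper1 (0.91) and Klhl9 (0.91), and negative for Reg1 (-2.20) and 1110032F04Rik (-0.91). These genes were listed because a test of the difference itself passed the threshold. All had been called in crypts on arrays that this test also uses, so the choice tilts the test towards a call.

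The QKO minus TKO difference in crypts, minus the Rb minus WT difference, was called for 5 genes as labelled and for 25 without those arrays. Among the genes called in crypts it was positive for Tppp (2.42), Gatm (2.30) and Ipo4 (1.68) and negative for Cdkn2c (-1.23), Wdhd1 (-1.19) and 1110032F04Rik (-1.05). Here too the choice of genes called in crypts tilts the test towards a call. Groups of 3 arrays are too small for the search for single outlying arrays, which was not made.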

How the results depend on the processing

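With all 6 crypt arrays as labelled, 0 genes were called under each of the 15 alternatives run. Without WT crypts 3 and Rb crypts 2, the 18 calls became 32 with quantile normalization (16 of the 18 among them), 0 with only the groups compared in the fit, and 2 to 120 when 1 of the 4 arrays was left out. The fit of only the groups compared has fewer arrays to estimate the spread, and the cause of the other shifts was not tested. Villi minus crypts gave 1896 calls with array weights as labelled and 601 to 896 when single arrays were left out. Without the 2 arrays it gave 1200 with only the groups compared, 1183 with array weights and 171 to 1126 on leaving out an array. As labelled, quantile normalization gave 611 positive and 379 negative calls, against 749 and 201. QKO minus TKO minus Rb minus WT, as labelled, gave 8 with arrays centred on their medians, 2 with the mean of probe sets, 12 with every probe set, 3 with only the groups compared, 57 with array weights, and 2 to 21 on leaving out an array. Without the 2 arrays the same difference gave 45, 16, 38 and 8 under the first 4 of these, and 3 to 233 on leaving out an array. Of the 17 called genes, 0 reversed, and over their alternatives the call was kept 131 times and lost 85 times. Nts and Cdkn2c kept theirs in 11 of 13 and Tppp in 2 of 12. List medians moved beyond the spread between arrays in 56 cases without the 2 arrays, against 291 that did not.

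Whether the replicate numbers pair the arrays could not be told. WT and Rb crypts of the same number correlated at -0.08, 0.42 and 0.29 in their deviations from group means. Those of different numbers correlated at -0.40 to 0.13. These deviations include WT crypts 3 and Rb crypts 2, whose Rb1 signal goes against the label. With the replicate block, 0 genes were called in crypts as labelled, 741 for villi minus crypts and 28 for QKO minus TKO minus Rb minus WT. Without WT crypts 3 and Rb crypts 2 these groups share only number 1, and a replicate block over all groups, chosen after seeing the data, gave 18 calls in crypts (13 of the 18 among them), 585 for villi minus crypts and 21 for QKO minus TKO minus Rb minus WT.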

Other observations

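Over the 6 crypt arrays 13 genes spanned more than 4 log2 units, and the following were picked among them after their values were seen. St3gal4, a sialyltransferase, read 12.77, 5.41 and 6.53 on WT crypts 1 to 3 and 13.12, 12.52 and 13.46 on Rb crypts 1 to 3, and 5.78 on WT villi 2 beside 12.50 and 12.57 on the 2 other WT villus arrays. Defa31, a Paneth cell defensin, read 14.89 on Rb crypts 2 and 6.36 to 7.19 on the 5 others. Cyp1a1, the classical target of the aryl hydrocarbon receptor, read 8.28, 6.51 and 7.99 on WT crypts 1 to 3 and 6.17, 10.84 and 7.28 on Rb crypts 1 to 3. The transcript of the ROSA26 locus (Gt(ROSA)26Sor) read 8.09 on Rb crypts 1 and 3.03 to 3.97 on the 5 others. None of these 4 patterns follows either the labels or the Rb1 signal.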
